A study of Mus musculus with 13 samples.

Results

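GMT iCMs are induced cardiomyocyte-like cells, made by driving mouse cells towards heart muscle with the transcription factors Gata4, Mef2c and Tbx5 (GMT). The 6 arrays of GMT iCMs in the series were set against its 1 array of embryonic day 12 (E12) heart, 7 of 13 arrays in all, to ask which genes of these cells stand at the level of the early heart and which do not. The members are arrays, chosen by their titles, and 16390 genes were read on each. The iCMs had been sorted for a GFP reporter of αMHC, the cardiac myosin heavy chain gene Myh6, at 2 and at 4 weeks after transduction. They were grown in medium with serum (FBS), in serum-free medium (SF) or in medium with the growth factors FGF2, FGF10 and VEGF (FFV), and each time and medium gave 1 array. The heart sample is labelled as heart tissue of E12 and received no factor. The sources used here do not give strain, sex, the number of animals or of sorted cells, or the cells from which these 6 were made. The iCMs are thus cells picked by a cardiac reporter after culture, while the heart is a tissue of many cell types.

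At this stage the mouse heart beats, its ventricular wall is growing by division of muscle cells, and it holds endocardium, epicardium, cushion mesenchyme and blood beside muscle. Contraction rests on thick filaments of myosin and thin filaments of actin, troponin and tropomyosin, anchored at Z-discs and M-bands. Calcium released from the sarcoplasmic reticulum switches the filaments on. GMT is a widely used combination for turning fibroblasts towards this state, and the cells it gives are known to be heterogeneous and often immature.

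Levels are log2 normalised intensities of single-colour arrays, and a difference is the iCM level minus the heart level. The lowest level on any array was 5.65 and the median gene stood at 6.31, so a gene near 6 is dim and its difference is compressed. With 1 array per group and 1 heart, no test was made and no p-value is given. A ± is the SD over the 6 iCM arrays, which differ in medium and time and are not replicates. A gene was called when it was at least 2-fold from the heart in the same direction on all 6 iCM arrays and well above the blank spots on the higher side. By this rule every called gene has all 6 iCM arrays on the same side of the heart, which is no further result. Levels of different genes come from different probes and are not compared with each other.

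Of the 16390 genes, 498 were called higher in iCMs (3.04%) and 575 were called lower (3.51%), together 6.55%. The authors' value table, which holds the same spots on another scale, gave 1359 (8.29%) and 1033 (6.3%). All 498 of the higher calls and 497 of the lower calls (3.03%) were made by both. The scale matters for the brighter genes: for the 1889 genes with a heart level of at least 9, the value table moved the median difference by 0.31 and median scaling moved it by 0.49, both upwards in iCMs. Over all genes the value table moved it by 0.11 and a floor on the signal by 0.25. Within 1.5-fold of the heart on all 6 arrays were 8551 of the 13888 genes well above background on all 7 arrays (61.6%), or 3736 (26.9%) when the value table had to agree. Most of these are dim. Among genes with a heart level of at least 9, 61 were called higher (3.23%), 275 were called lower (14.6%) and 574 lay within 1.5-fold (30.4%), 305 of them by both sources (16.1%). The shares over all genes (3.04% higher, 3.51% lower, 61.6% within 1.5-fold) are the background for each list count below. For bright members the shares at a heart level of at least 9 are the closer background.

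**Figure D1:**
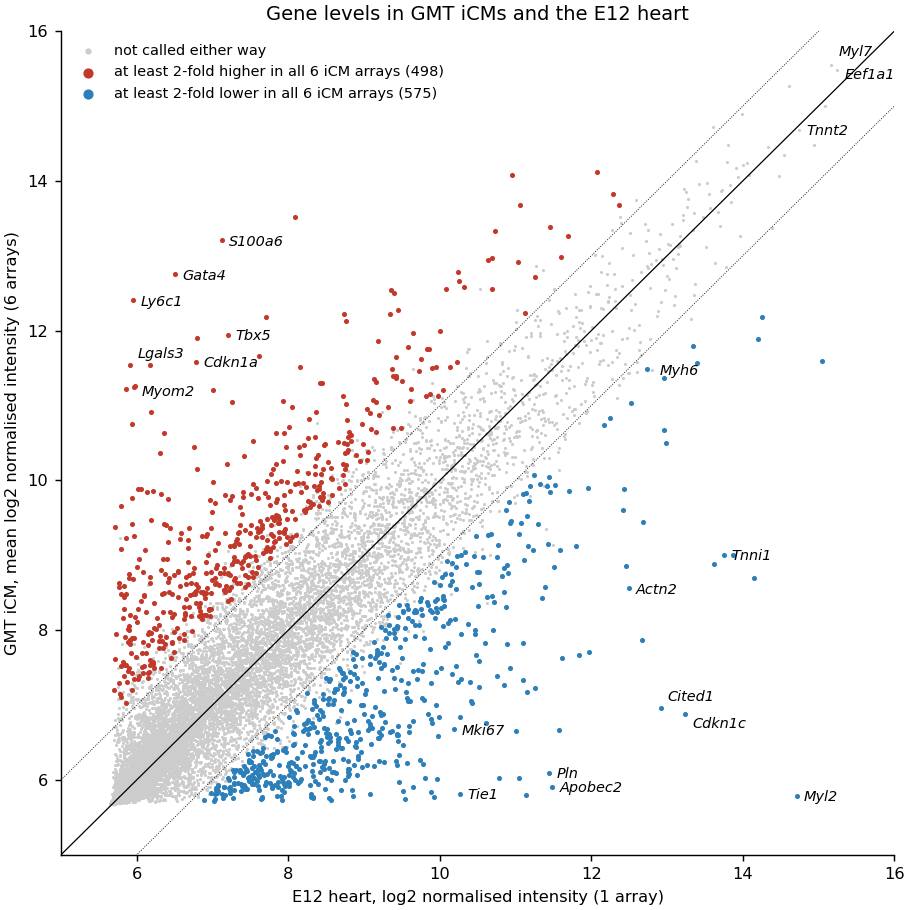
Level of each of 16390 genes in the E12 heart (x axis, log2 normalised intensity, 1 array) against the mean of the 6 GMT iCM arrays (y axis, same unit). The solid line marks equal levels and the dotted lines a 2-fold difference; 498 genes called higher are red, 575 called lower are blue, and Myl2 lies farthest below the line.

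Taken one at a time, the iCM arrays held 927 to 1036 genes at least 2-fold above the heart and 803 to 971 at least 2-fold below it. Both counts were lowest in FFV at 4 weeks. Across genes the level correlated with that of the heart at a Pearson r of 0.874 (SF at 4 weeks) to 0.895 (FFV at 4 weeks). These correlations share the heart array and describe genes, which are not independent.

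The labelled cell types were first checked against marker genes. The summed signal of 8 cardiomyocyte markers was 78460 to 117735 in the iCM arrays, 105932 in the heart and 529 in mouse embryonic fibroblasts (MEFs). The iCM range thus held the heart value, although 4 of the 8 markers were called lower. Such a sum follows its brightest members, here Myl7 (15.17 in the heart) and Tnnt2 (14.75), and says little of the others. A sum of dim markers holds mostly the floor of the scale. Endothelial markers summed to 409 to 470 in iCMs, 2372 in the heart and 371 in MEFs, and 4 of 6 were called lower. Fibroblast markers summed to 1594 to 5645 in iCMs, 10408 in the heart and 37092 in MEFs, with 3 of 6 called lower. Macrophage markers summed to 394 to 1581 in iCMs, 566 in the heart and 7368 in MEFs, with 0 of 6 called. The part of macrophage RNA in the MEF readings below was not tested. No measured marker was below background on all iCM arrays. In tissue and in sorted cells alike, fewer cells of a type and less RNA per cell cannot be told apart.

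The transduced factors were checked next. Gata4 stood at 6.50 in the heart and at 12.18, 12.77 and 13.19 (the lowest, median and highest of the 6 arrays, the order used throughout) in iCMs, a 76.0-fold difference. Tbx5 stood at 7.20 in the heart and at 11.29, 12.02 and 12.28 in iCMs, a 26.8-fold difference. Both factors were called higher, which by the rule places every iCM array above the heart. The P1 heart and MEF arrays read 7.03 and 5.87 for Gata4 and 6.94 and 5.88 for Tbx5, so both probes were dim in the hearts themselves. Mef2c is not named in the probe table and was not analysed here. Whether the probes read vector RNA, the cells' own transcripts or both was not tested. The Tbx5 call was lost when the local surround of the spots was subtracted.

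Of 26 cardiac regulators 2 were called higher, the transduced pair, and 10 lower, against 3.04% and 3.51% of all genes. The list had a median difference of -0.54, against 0.01 over all genes, and of -1.97 in the value table. Gata6, a GATA factor of the early heart, stood at 11.01 in the heart and at 6.35, 6.57 and 7.10 in iCMs. Hopx, a homeodomain protein without DNA binding, stood at 11.62 against 7.11, 7.37 and 8.47. Hey2, a Notch target of the compact ventricular wall, stood at 8.80 against 5.95, 6.08 and 6.52. These 3 regulators were called lower, with differences of -4.35 ± 0.31, -3.99 ± 0.58 and -2.66 ± 0.20. The atrial regulator Nr2f2 was 2.45-fold lower, a call lost with median scaling, with the mean of probes and with the surround subtracted. Mef2d, a relative of the transduced Mef2c, lay at 8.03 in the heart and between 7.80 and 8.17 in iCMs.

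Thick filament genes come first. Myl7, the atrial regulatory light chain, stood at 15.17 in the heart and at 15.30, 15.61 and 15.68 in iCMs. Myl4, the atrial essential light chain, stood at 13.55 against 13.41, 13.90 and 14.18. Myl3, the ventricular essential light chain, stood at 12.71 against 12.89, 13.59 and 13.71. These 3 light chains were bright on all 7 arrays, with differences of 0.38 ± 0.17, 0.28 ± 0.27 and 0.73 ± 0.33 and no call. Myl7 read 15.68 in FFV at both times and in SF at 4 weeks, as Eef1a1 did in MEFs. The normalisation gives every array the same set of values, so a gene at its top can rise no further. The Myl7 difference, at most 0.51, was thus limited upwards and could not have been called higher. Myl3 also read 12.81 in MEFs and 11.70 in the P1 heart. Myl2, the ventricular regulatory light chain, stood at 14.71 in the heart and at 5.76, 5.79 and 5.81 in iCMs. It was 486-fold lower, the lowest gene of the table on both sources, and was well above background on 5 of the 6 iCM arrays. The kinase Mylk3, which phosphorylates that light chain in heart muscle, was 13.8-fold lower, at 9.81 against 5.94, 5.98 and 6.14.

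Of the heavy chain genes, Myh6 varied most between cultures. Myh6 stood at 12.81 in the heart. In iCMs at 2 weeks it stood at 10.90 in FBS, 10.93 in SF and 11.61 in FFV, and at 4 weeks at 10.72, 12.24 and 12.47. All 6 values were below the heart, by 1.27-fold in FFV at 4 weeks to 4.24-fold in FBS at 4 weeks, and the gene was not called. The cells were sorted by a reporter of this gene's promoter, so its level is not independent of the sort. Myh7, the slow heavy chain, was called lower at 7.63 against 5.99, 6.10 and 6.47, a call lost with median scaling and with the surround subtracted. Of 8 thick filament genes measured, 0 were called higher and 3 lower, with a median of -1.39.

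Thin filament genes carry the calcium switch. Tnnt2, the cardiac troponin T, stood at 14.75 in the heart and at 14.22, 14.73 and 15.09 in iCMs, within 1.5-fold on both sources. The heart value fell inside the iCM range. Tnni3, the adult cardiac troponin I, stood at 12.28 against 10.14 (FBS at 2 weeks), a median of 11.43 and 12.47 (FFV at 4 weeks), so only the last array reached the heart. Tnni1, the slow skeletal troponin I that the fetal heart uses, stood at 13.76 against 8.28, 8.98 and 9.81 and was 26.9-fold lower. Tnnt1, the slow skeletal troponin T, was 29.96-fold lower, and skeletal α-actin (Acta1), which the embryonic heart also expresses, was 15.7-fold lower. In contrast Tpm1, the main striated tropomyosin gene, was 8.75-fold higher, at 10.95 in the heart and 13.88, 14.05 and 14.34 in iCMs. It stood at 13.20 in MEFs and 10.13 in the P1 heart. Of 14 thin filament genes 3 were called higher and 5 lower, with a median of -0.41.

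**Figure D2:**
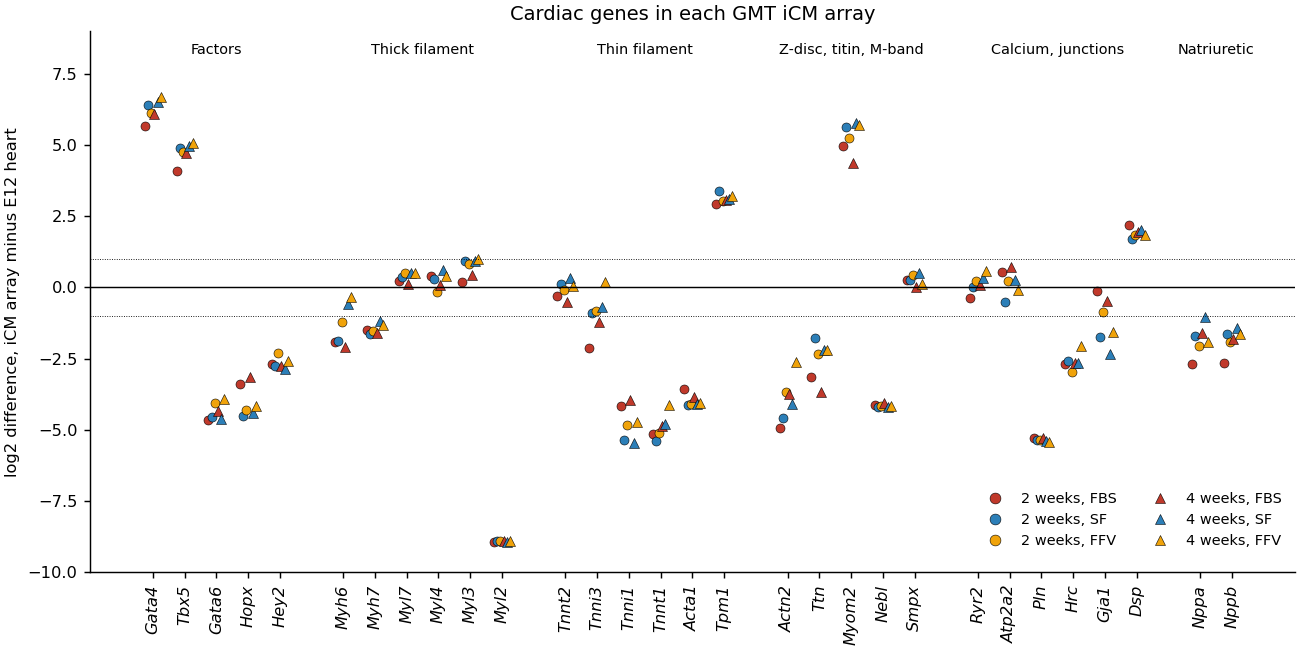
Log2 difference of each GMT iCM array from the E12 heart (y axis) for cardiac genes grouped by role (x axis); each point is 1 array, colour gives the medium and shape the time, and dotted lines mark 2-fold. Myl7, Tnnt2 and Ryr2 lie near 0 on all 6 arrays, while Myl2, Pln, Tnni1 and Nebl lie far below it on all 6 and Myom2 and Tpm1 above it.

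Among Z-disc, titin and M-band genes 1 was called higher and 6 lower of 28, with a median of 0.01. Actn2, the sarcomeric α-actinin of the Z-disc, stood at 12.49 in the heart and at 7.55, 8.58 and 9.89 in iCMs, 15.3-fold lower. Ttn, the giant spring titin, stood at 12.44 against 8.77, 10.17 and 10.66, 5.88-fold lower. Nebl, a nebulin relative of the cardiac Z-disc, stood at 9.93 against 5.72, 5.76 and 5.86, and only 3 of the 6 iCM arrays were above background. All 3 were called lower. The Actn2 call was lost with the surround subtracted. Myom2, an M-band protein of mature fast and cardiac muscle, went the other way, at 5.96 in the E12 heart against 10.34, 11.41 and 11.73, 39.0-fold higher. The P1 heart read 11.56 for Myom2 and MEFs 5.76, so the iCM arrays lay on both sides of the P1 level. Hspb7, a small heat shock protein of heart muscle, was at 9.67 in the heart, between 9.47 and 9.82 in iCMs and at 9.69 in MEFs. Smpx, a small striated muscle protein, was at 10.66 and between 10.67 and 11.16.

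Of 23 calcium handling genes 1 was called higher and 3 lower, with a median of 0.02. Within 1.5-fold lay 13 of 22, against 61.6% of all genes, most of them dim, and 30.4% at a heart level of at least 9. Ryr2, the calcium release channel, stood at 7.14 in the heart and at 6.76, 7.30 and 7.71 in iCMs. Atp2a2, the pump that returns calcium to the store, stood at 11.85 against 11.33, 12.09 and 12.58. For both the heart lay inside the iCM range. Pln, the inhibitor of that pump, stood at 11.44 against 6.02, 6.09 and 6.16 and was 40.8-fold lower. Hrc, a calcium-binding protein of the store, was 6.04-fold lower. S100a1, a calcium sensor that acts on the pump and the channel, was 3.12-fold higher, at 8.44 against 9.82, 9.99 and 10.51. The kinase Camk2d lay at 8.63 in the heart and between 8.45 and 8.76 in iCMs.

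Of 19 ion channel and gap junction genes 0 were called higher and 5 lower. The median was -0.18 and, in the value table, -0.90. Kcne1, a potassium channel subunit, was 9.55-fold lower and the T-type calcium channel Cacna1h 6.74-fold. The sulfonylurea receptor Abcc9 stood at 8.32 against 5.73, 5.75 and 5.79, above background on 3 of 6 iCM arrays. Connexin 45 (Gjc1) was 3.35-fold lower, which the mean of probes did not call. Connexin 43 (Gja1) stood at 11.56 in the heart, at 11.45 in FBS at 2 weeks and 11.09 in FBS at 4 weeks. In SF it stood at 9.81 and 9.22, and in FFV at 10.69 and 9.997. Both serum arrays were thus the nearest to the heart, all 6 were below it, and the gene was not called. Several channel genes that lay within 1.5-fold, such as Kcnj3 and Kcnd2, had heart levels near 6 and carry little information.

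Of 12 intercalated disc genes 1 was called higher and 0 lower, with a median of -0.04. Within 1.5-fold of the heart were 5 of the 12, against 61.6% of all genes, most of them dim, and 30.4% at a heart level of at least 9. N-cadherin (Cdh2), the adhesion molecule between heart muscle cells, stood at 11.98 in the heart and at 11.58, 11.69 and 11.87 in iCMs, below the heart on every array. Desmoplakin (Dsp), which ties intermediate filaments to desmosomes, was 3.79-fold higher, at 9.83 against 11.52, 11.73 and 12.04.

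The natriuretic peptides, hormones of the embryonic chambers, were lower. Nppa stood at 13.40 in the heart and at 10.70, 11.59 and 12.34 in iCMs, 3.57-fold lower. Nppb stood at 11.71 against 9.04, 9.99 and 10.28, 3.60-fold lower. Both peptides were called lower. The Nppa call was lost in the value table, with a floor, with the surround subtracted and with median scaling, and the Nppb call was lost with median scaling. Sorted by chamber, 0 of 10 ventricular genes were called higher and 6 lower (median -1.65). Of 11 atrial genes 0 were called higher and 2 lower (median 0.03). The ventricular calls include Myl2, Pln, Hey2, Myh7 and Mpped2 (6.98-fold), and the 2 atrial calls are Nppa and Nr2f2. Both lists hold genes too dim in the heart to be called lower. These include the atrial Gja5 and Kcnj3, at 5.96 and 5.95, and the ventricular Hand1 and Kcnip2, at 6.23 and 5.82. The difference between the chamber lists was not tested.

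Metabolic genes were compared because heart muscle shifts from glycolysis towards fatty acid oxidation as it matures. Of 11 muscle energy buffering genes 0 were called higher and 4 lower, with a median of -0.53. Myoglobin (Mb), the oxygen store of muscle, stood at 10.52 in the heart and at 6.77, 7.32 and 8.63 in iCMs. The muscle isoforms Cox6a2 and Cox8b of cytochrome c oxidase were 6.44-fold and 6.24-fold lower, and muscle creatine kinase (Ckm) was 2.60-fold lower. The Mb call was lost with the surround subtracted. Of 41 oxidative phosphorylation genes 1 was called higher and 1 lower, and 20 of 40 lay within 1.5-fold. Over all genes the shares were 3.04%, 3.51% and 61.6%, the last being 30.4% at a heart level of at least 9. Atp5b, the catalytic subunit of ATP synthase, stood at 13.83 in the heart and at 13.69, 13.98 and 14.11 in iCMs. Cox4i1, another oxidase subunit, was the one called higher (2.46-fold), and Ppargc1a, a coactivator of mitochondrial genes, the one called lower (5.76-fold). Both calls were lost with the surround subtracted, and that of Ppargc1a also with median scaling. The median of -0.12 turned to 0.22 in the value table.

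Of 26 genes of fatty acid uptake and oxidation 2 were called higher and 1 lower, with a median of -0.07 and 0.23 in the value table. Acaa2, the last enzyme of the mitochondrial cycle, stood at 8.73 in the heart and at 11.71, 12.30 and 12.64 in iCMs, 11.3-fold higher. Pdk4, the kinase that closes off pyruvate oxidation, stood at 6.97 against 9.39, 9.84 and 9.96, 6.81-fold higher. These are the 2 called higher. Cpt1b, the muscle carnitine transferase that admits fatty acids to mitochondria, was 3.31-fold lower, a call lost in the value table, under the surround and floor settings and with median scaling. Of 23 glycolysis genes 0 were called higher and 3 lower, with a median of -0.57 and -0.29 in the value table. The 3 calls were transporters. The glucose carriers Slc2a1 and Slc2a4 were 10.3-fold and 4.46-fold lower, and the lactate exporter Slc16a3 was 8.57-fold lower, at 10.40 in the heart and 6.64, 6.90 and 8.96 in iCMs. Within 1.5-fold on all 6 arrays lay 3 of the 23, among them the enzymes Gpi1 and Eno1. The Slc16a3 call was lost with median scaling.

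Cell cycle genes had the lowest median of all lists, -2.34, with 0 called higher and 34 lower of 43 measured. Of all genes 3.51% were called lower, and 14.6% of those with a heart level of at least 9. The value table gave the same 0 and 34 as counts. Mki67, the antigen used to mark dividing cells, stood at 10.19 in the heart and at 6.22, 6.73 and 7.07 in iCMs. Birc5 (survivin), a subunit of the chromosomal passenger complex, stood at 10.42 against 6.45, 7.05 and 7.65. The spindle checkpoint kinase Bub1b was 9.43-fold lower and Rrm2, the ribonucleotide reductase subunit of S phase, 8.23-fold lower. These 4 are among the 34 called lower. The transcription factor E2f1, at 6.50 in the heart, was too dim on this probe to tell.

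Promoters of late cell cycle genes are known to carry paired CCAAT boxes, bound by NF-Y, and a cell cycle homology region (CHR), bound by DREAM and B-Myb complexes. The RefSeq table of mouse promoters (GRCm38.p6) held 28 of the 34 called genes and 13127 of all genes. CCAAT, on either strand in the 250 bases before the start, was found for 22 of the 28 (78.6%), 204 of 447 genes called lower (45.6%), 155 of 378 called higher (41.0%) and 5137 of all 13127 (39.1%). TTTGAA, the CHR, was found for 8 of 28 (28.6%) and 1950 of all (14.9%). In the last 120 bases, 14 of 28 cell cycle genes had 2 or more CCAAT boxes (50%), against 919 of all (7.001%). These 120 bases are shown for the 5 genes with the largest smallest difference among such genes with 1 listed start, to let the spacing be seen. Capitals mark CCAAT or its reverse complement ATTGG, and TTTGAA or its reverse complement TTCAAA, which do not overlap here. Each is written 5′ to 3′ and ends at the last base before the start of transcription.
Top2a: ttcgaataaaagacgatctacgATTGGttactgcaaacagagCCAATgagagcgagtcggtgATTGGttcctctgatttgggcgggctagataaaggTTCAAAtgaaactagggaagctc
Cdk1: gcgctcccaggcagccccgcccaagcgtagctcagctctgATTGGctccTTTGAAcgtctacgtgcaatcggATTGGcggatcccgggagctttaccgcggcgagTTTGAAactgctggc
Cdc20: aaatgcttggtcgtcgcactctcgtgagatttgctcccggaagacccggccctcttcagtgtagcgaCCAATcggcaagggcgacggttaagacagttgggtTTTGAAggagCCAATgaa
Mcm5: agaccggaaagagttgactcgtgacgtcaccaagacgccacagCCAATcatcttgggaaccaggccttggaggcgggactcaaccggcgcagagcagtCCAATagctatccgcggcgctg
Bub1: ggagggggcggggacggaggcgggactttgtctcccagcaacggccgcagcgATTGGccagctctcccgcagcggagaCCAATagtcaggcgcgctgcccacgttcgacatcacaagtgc

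The stretches lie at chr11:99024190-99024309 (Top2a, minus strand), chr10:69352913-69353032 (Cdk1, minus strand), chr4:118437344-118437463 (Cdc20, minus strand), chr8:75109389-75109508 (Mcm5, plus strand) and chr2:127831860-127831979 (Bub1, minus strand). In Top2a, which untangles DNA at mitosis, the 3 CCAAT boxes begin 98, 78 and 58 bases before the start, each 20 bases from the next. In Cdk1, the mitotic kinase, they begin at 80 and 48 bases, with a CHR at 71 and another at 15. Cdc20, the activator of the anaphase-promoting complex, has a CHR 18 bases before the start. The replication helicase subunit Mcm5 and the checkpoint kinase Bub1 show CCAAT boxes 55 and 26 bases apart and no CHR in this stretch. A match is a description of the letters. Binding was not measured on these arrays.

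The list of p53 targets and cell cycle brakes had the highest median, 1.70, with 11 called higher and 0 lower of 19, against 3.04% and 3.51% of all genes. Cdkn1a (p21), the inhibitor that p53 induces, stood at 6.78 in the heart and at 11.08, 11.72 and 11.83 in iCMs, 28.0-fold higher. Ccng1, a p53-induced cyclin, stood at 9.34 against 11.63, 12.26 and 12.57, 7.39-fold higher. Phlda3, an inhibitor of Akt, and the death receptor Fas were 5.88-fold and 5.59-fold higher, the Fas call being lost with the surround subtracted. These 4 are among the 11 called higher. MEFs read 10.13 for Cdkn1a, below every iCM array, and the P1 heart 6.99. The stress sensor Sesn2 lay at 8.65 in the heart and between 8.63 and 8.82 in iCMs.

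Of 17 imprinted genes 0 were called higher and 8 lower, with a median of -1.52. The cell cycle inhibitor Cdkn1c (p57) stood at 13.24 in the heart and at 6.50, 6.85 and 7.40 in iCMs, 82.0-fold lower, in the opposite direction to Cdkn1a. Plagl1, a zinc finger regulator of the imprinted network, stood at 14.15 against 7.56, 8.81 and 9.62. The growth factor Igf2 stood at 13.62 against 7.76, 8.93 and 9.89, and the neighbouring noncoding RNA H19 at 13.88 against 7.37, 9.15 and 10.14. All 4 were among the brightest heart genes and were called lower. MEFs, unlike the iCMs, read 13.06 for Igf2 and 13.35 for H19. Of 10 early embryonic RNA-binding and chromatin genes 0 were called higher and 3 lower, among them the mRNA-binding Igf2bp1 (4.84-fold).

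Of 36 developmental signalling genes 1 was called higher and 5 lower (median -0.25, and -0.81 in the value table). The ligand Bmp7 stood at 9.65 in the heart and at 5.84, 5.91 and 6.004 in iCMs, 13.4-fold lower, and lost its call with the surround subtracted. The receptor Notch1 was 6.29-fold lower, the BMP target Id2 5.72-fold and the Wnt inhibitor Sfrp2 6.64-fold. The 15 lowest genes, ranked by the smallest difference over the 6 arrays among those called by both sources, also held the transcriptional cofactor Cited1 (62.2-fold), the muscle deaminase relative Apobec2 (47.7-fold), the G protein Gna15 (27.0-fold), the tubulin carboxypeptidase Vash2 (32.5-fold) and the heparin-binding growth factor midkine (Mdk, 28.0-fold). Olfr376, an olfactory receptor gene, stood among them at 11.14 in the heart and between 5.78 and 5.80 in iCMs. It read 5.82 in the P1 heart and 5.80 in MEFs, so among these arrays only that of the E12 heart was bright. Whether this is a fault of the spot was not tested. Vash2 lost its call with the surround subtracted.

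**Figure D3:**
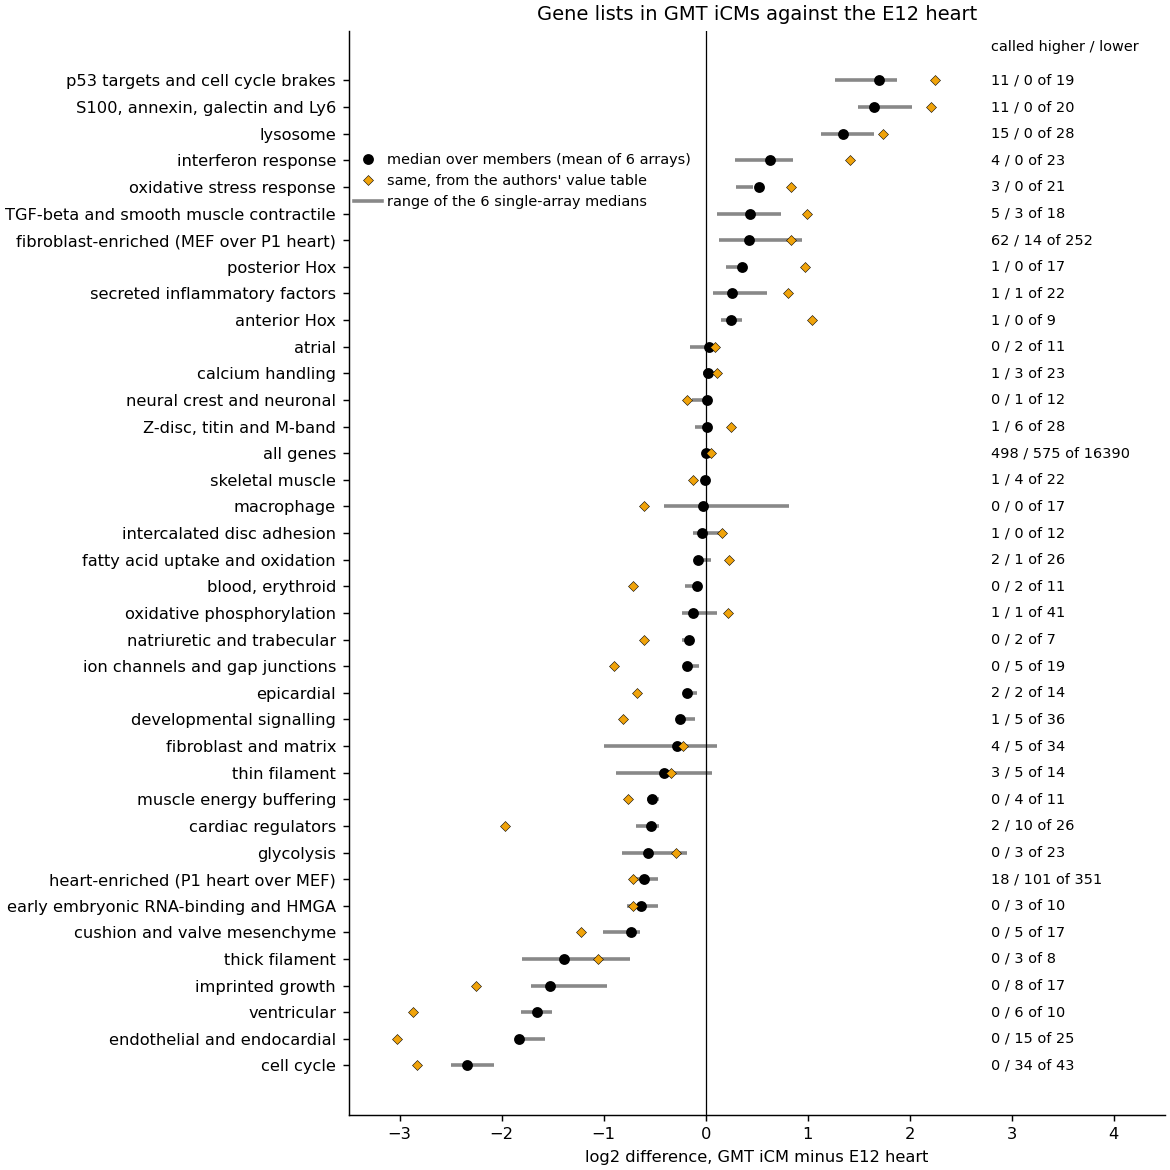
Median log2 difference (x axis, GMT iCM minus E12 heart) of each gene list and of all genes; black points are medians over members of the mean of 6 arrays, grey bars span the medians of single arrays, and diamonds give the value table. Numbers on the right count members called higher and lower; cell cycle lies lowest at -2.34 and p53 targets and cell cycle brakes highest at 1.70.

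Genes of the other cell types of the heart were examined because the tissue holds them beside its muscle. Of 25 endothelial and endocardial genes 0 were called higher and 15 lower, with a median of -1.83 and -3.03 in the value table. Called lower were 3.51% of all genes and 14.6% of those with a heart level of at least 9. The angiopoietin co-receptor Tie1 stood at 10.27 in the heart and at 5.77, 5.82 and 5.85 in iCMs. The adrenomedullin receptor partner Ramp2 stood at 9.88 against 5.75, 5.79 and 6.12, above background on 4 of 6 iCM arrays. The secreted vascular protein Egfl7 and the surface sialomucin Cd34 were each 11.9-fold lower. Pecam1 stood at 7.64 against 5.72, 5.75 and 5.77 and was above background on 2 iCM arrays. The part of cell composition in any other difference was not tested. Of 17 cushion and valve genes 0 were called higher and 5 lower, such as the proteoglycan Vcan (3.76-fold). The hyaluronan synthase Has2 stood at 7.66 against 5.72, 5.78 and 5.85, above background on 4 of 6 iCM arrays. Of 11 blood genes 0 were called higher and 2 lower, the anion exchanger Slc4a1 (2.34-fold) and the haem enzyme Alas2 (2.33-fold). With the surround subtracted, Vcan, Alas2 and Slc4a1 lost their calls.

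Epicardial genes were called in both directions. Tcf21, a factor of epicardium-derived fibroblasts, stood at 9.54 in the heart and at 5.71, 5.73 and 5.78 in iCMs, above background on 1 of 6 iCM arrays. The mesothelial uroplakin Upk3b was 7.76-fold lower. Mesothelin (Msln) was higher, at 6.80 in the heart and 8.72, 10.34 and 11.55 in iCMs, and so was the retinal dehydrogenase Aldh1a1, at 5.93 against 8.10, 10.21 and 10.50. Msln read 6.35 in MEFs and 6.72 in the P1 heart, below every iCM array, and Aldh1a1 6.34 and 6.21. The Tcf21 and Aldh1a1 calls were lost with the surround subtracted. In all, 2 of 14 epicardial genes were called higher and 2 lower.

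Of 17 macrophage genes 0 were called, and 3 of the 14 well above background on all 7 arrays lay within 1.5-fold. The single-array median was lowest in SF at 4 weeks (-0.41) and highest in FBS at 4 weeks (0.82). Complement C1qa, singled out after its values were seen, stood at 6.68 in the heart, at 9.27 in FBS at 4 weeks, at 7.02 in FBS at 2 weeks and between 5.79 and 5.91 on the other 4 iCM arrays. The receptor Csf1r read 6.88 in the heart, between 6.76 and 6.99 in iCMs and 7.68 in MEFs. Mrc1 stood at 6.30 in the heart, 6.72 in FBS at 4 weeks and 5.75 to 5.85 on the other iCM arrays. Ptprc stood at 5.92, 6.18 and 5.80 to 5.90 in the same order. These probes were dim in the heart and in iCMs.

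Of 34 fibroblast and matrix genes 4 were called higher and 5 lower, with a median of -0.28. Pdgfra, a receptor of mesenchymal cells, stood at 9.89 in the heart and at 6.19, 6.74 and 7.44 in iCMs, 8.38-fold lower. Pcolce, which enhances collagen maturation, stood at 9.39 against 12.33, 12.51 and 12.66, 8.68-fold higher. Osteopontin (Spp1) was 8.70-fold higher and lysyl oxidase (Lox), the collagen crosslinker, 3.41-fold higher, the latter lost with the surround subtracted. The members thus lay on both sides of the heart, and collagens Col5a2 and Col4a2 lay within 1.5-fold. In the TGF-β and smooth muscle list 5 of 18 were called higher and 3 lower. The matricellular Ccn2 was 9.12-fold and Ccn1 5.85-fold higher, whereas smooth muscle calponin (Cnn1) was 8.83-fold lower, at 9.47 against 6.14, 6.29 and 6.64.

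To place genes without hand-made lists, heart-enriched and fibroblast-enriched genes were chosen on the P1 heart and MEF arrays, at least 4-fold apart. Neither array enters the difference between iCMs and the E12 heart, and each is again 1 array. The heart-enriched genes are those of a whole tissue. Those called lower include Pecam1, Tie1, Cd34, Tcf21 and Alas2 from the lists of other cell types, beside muscle genes such as Myl2 and Pln. The share of each cell type in the set was not tested. Of 351 heart-enriched genes 18 were called higher in iCMs than in the E12 heart (5.13%) and 101 lower (28.8%), with a median of -0.60. Over all genes these shares were 3.04% and 3.51%, and at a heart level of at least 9 they were 3.23% and 14.6%. Within 1.5-fold were 52 of 331 (15.7%), against 61.6% of all genes well above background and 30.4% at a heart level of at least 9. Of 252 fibroblast-enriched genes 62 were called higher (24.6%) and 14 lower (5.56%), with a median of 0.42. The name means only MEFs over P1 heart. Macrophage markers summed to 7368 in MEFs and 566 in the E12 heart, and Mrc1 of the macrophage list was in this set. The part of macrophage RNA in the set was not tested. The value table gave 33 and 105 heart-enriched calls and 93 and 12 fibroblast-enriched ones. The same heart-enriched groups held high, near and low genes: Popdc3, a cAMP-binding membrane protein of striated muscle, was 8.11-fold higher, at 7.20 against 9.52, 10.17 and 10.75, while the complex I subunit Ndufv2 lay at 12.13 in the heart and between 11.68 and 11.98 in iCMs.

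Promoters of the heart-enriched genes were searched for the motif AGATAA of GATA factors and the motif AGGTGT of T-box factors, on both strands of the 250 bases before the start. AGATAA was found for 10 of 73 such genes called lower (13.7%), 6 of 54 called higher or within 1.5-fold (11.1%) and 1232 of all 13127 (9.39%). AGGTGT was found for 9 of 73 (12.3%), 10 of 54 (18.5%) and 1678 of all (12.8%). These shares describe the letters and say nothing of binding.

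Read the other way, 12.4% of the genes called higher were fibroblast-enriched and 3.61% heart-enriched. Of the genes called lower, 17.6% were heart-enriched and 2.43% fibroblast-enriched. Of all genes 2.14% were heart-enriched and 1.54% fibroblast-enriched. Most called genes of both directions were therefore in neither group. Among fibroblast-enriched genes that were low in iCMs stood the growth factor pleiotrophin (Ptn), at 11.84 in the heart and 6.13, 7.51 and 9.40 in iCMs, and the growth cone protein Gap43 (6.05-fold). By array, the fibroblast-enriched median was 0.13 in SF at 4 weeks and 0.95 in FBS at 4 weeks. The macrophage marker sum was also highest in FBS at 4 weeks, and a link was not tested. The heart-enriched median ranged from -0.68 in SF at 2 weeks to -0.46 in FFV at 4 weeks.

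**Figure D4:**
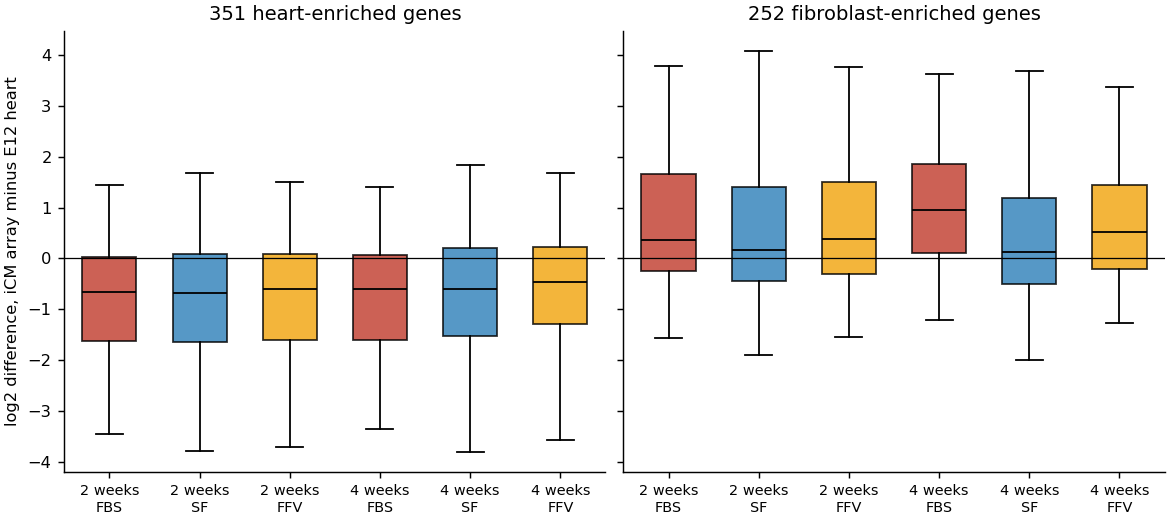
Log2 difference from the E12 heart (y axis) of 351 heart-enriched and 252 fibroblast-enriched genes on each of the 6 GMT iCM arrays; boxes span the quartiles with the median as a line, whiskers the central 90% of genes, and colour gives the medium. Heart-enriched medians lie below 0 and fibroblast-enriched medians above 0 on all 6 arrays, the latter highest in FBS at 4 weeks (0.95).

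Ly6c1, S100a6, Anxa8 and Lgals3 were 4 of the 15 highest genes in iCMs, ranked in the same way. Of 20 S100, annexin, galectin and Ly6 genes 11 were called higher and 0 lower, with a median of 1.65. The surface protein Ly6c1 stood at 5.95 in the heart and at 11.82, 12.46 and 13.16 in iCMs. The calcium-binding S100a6 stood at 7.12 against 12.77, 13.27 and 13.62. The lectin Lgals3 stood at 5.91 against 10.79, 11.59 and 12.15, and the annexin Anxa8 at 5.85 against 10.94, 11.12 and 11.58. In all 4 the heart was dim and every iCM array bright, by 87.8-fold, 67.9-fold, 49.5-fold and 41.2-fold. S100a6, Lgals3 and Ly6c1 read 13.60, 12.17 and 11.18 in MEFs, and Anxa8 read 6.75. The list was drawn up with such genes known to be high, so its count is no independent evidence.

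The other genes among the 15 highest had varied roles. The serine protease Prss23 was 43.0-fold higher, the junction protein Jam2 38.7-fold and the matrix protein Efemp1 41.1-fold. The stress-induced Nupr1 was 28.2-fold higher, the epoxide hydrolase Ephx1 19.4-fold, the fatty acid desaturase Scd1 34.4-fold and Csmd2, a membrane protein with CUB and sushi domains, 22.4-fold. Scd1 varied most among them, at 6.79 in the heart and 10.81, 11.96 and 12.75 in iCMs. Prss23, Efemp1, Nupr1, Ephx1 and Scd1 were fibroblast-enriched. In MEFs they read 11.59, 8.66, 8.96, 9.96 and 9.88, below every iCM array. Jam2 and Csmd2 were not fibroblast-enriched, at 6.61 and 7.82 in MEFs. Efemp1, Nupr1 and Ephx1 lost their calls with the surround subtracted.

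Of 28 lysosomal genes 15 were called higher and 0 lower, against 3.04% and 3.51% of all genes, with a median of 1.35. The glycoprotein Gpnmb stood at 6.31 in the heart and at 9.58, 10.42 and 11.09 in iCMs, 16.6-fold higher. The hexosaminidase subunit Hexa stood at 7.94 against 10.10, 10.70 and 10.89, 6.44-fold higher. The cathepsins Ctsh and Ctsf, proteases of the lysosome, were 5.44-fold and 4.74-fold higher. MEFs read 11.95 for Gpnmb, above every iCM array, and 10.80 for Hexa, inside the iCM range. For Ctsh and Ctsf they read 7.18 and 7.59, below every iCM array. Not 1 of the 27 members well above background on all 7 arrays lay within 1.5-fold of the heart on all 6 iCM arrays. Of 21 oxidative stress genes 3 were called higher and 0 lower, the metallothioneins Mt1 (4.96-fold) and Mt2 (3.59-fold) and ferritin light chain Ftl1 (2.90-fold), all lost with the surround subtracted. MEFs read 12.63 for Mt1 and 12.40 for Mt2, above every iCM array, and 13.67 for Ftl1, inside the iCM range.

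Of 23 interferon response genes 4 were called higher and 0 lower, with a median of 0.63 and 1.42 in the value table. Ifi27, a mitochondrial interferon-induced protein, stood at 7.84 in the heart and at 9.98, 10.23 and 10.37 in iCMs, 5.19-fold higher. Bst2, Ifi35 and the peptide transporter Tap1 were 2.86-fold, 2.56-fold and 2.40-fold higher and lost their calls with the surround subtracted. MEFs read 10.48 for Ifi27, 9.63 for Bst2 and 8.005 for Ifi35, above every iCM array, and 6.93 for Tap1, below every iCM array. Of 22 secreted inflammatory factors 1 was called higher and 1 lower. The chemokine Ccl7 was 3.88-fold higher, lost with the surround subtracted. Cxcl12, a chemokine of stroma, was 4.37-fold lower, a call lost in the value table, under the surround and floor settings and with median scaling.

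Hox genes, which mark position along the body, were mostly dim. Of 9 anterior Hox genes 1 was called higher (Hoxa5, 2.72-fold), and of 17 posterior ones 1 (Hoxc8). Hoxc8 was not well above background in the heart, at 5.70, and stood at 6.87, 7.20 and 7.48 in iCMs, at least 2.76-fold higher, where the bound uses the lowest signal above background. MEFs read 7.01 for Hoxc8. Both calls were lost with the surround subtracted. Of 12 neural genes 0 were called higher and 1 lower (Gap43), and of 22 skeletal muscle genes 1 was called higher and 4 lower. The muscle regulator Myod1 lay at 6.40 in the heart and between 6.38 and 6.53 in iCMs. The caveolin of muscle, Cav3, was 4.68-fold lower and the fast troponin I Tnni2 5.83-fold. The calcium store protein Casq1 stood at 8.33 against 5.72, 5.76 and 5.90, above background on 3 of 6 iCM arrays.

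The 15 brightest genes within 1.5-fold of the heart held 9 ribosomal proteins beside Myl7 and Tnnt2. The elongation factor Eef1a1 stood at 15.24 in the heart and at 15.39, 15.50 and 15.54 in iCMs. The ribosomal protein Rps18 stood at 14.34 against 14.27, 14.44 and 14.58, the prolyl isomerase Ppia at 15.09 against 14.87, 14.96 and 15.17, and thymosin Tmsb4x at 14.08 against 13.67, 14.12 and 14.42. By the value table alone Myl7, Rps14, Rpl26 and Rpl19 lay beyond 1.5-fold on at least 1 array. For genes at the top of the scale, such as Myl7 and Eef1a1, the normalised values limit any rise.

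A small number of genes, 6 in all, lay at least 1.5-fold above the heart in one medium and 1.5-fold below it in another at both times. Ndrg4, a protein of the cytoplasm found in heart and brain, stood at 9.81 in the heart, at 8.14 and 7.60 in FBS (2 and 4 weeks), at 11.99 and 12.03 in SF and at 11.81 and 11.60 in FFV. The lipid carrier Apoe stood at 10.32 in the heart, at 12.03 and 12.98 in FBS and at 8.69 and 9.11 in SF. Mlf1 was likewise above the heart in FBS and below it in SF. The acetate enzyme Acss1, the G protein subunit Gng2 and the anion transporter Slco3a1 were below the heart in FBS and above it in SF and FFV. No gene was split by time, but that rule is stricter, since every array of a time, over all media, had to pass. The absence of such genes is therefore not comparable with the count for media. Each medium has 1 array per time, and these differences were not tested.

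**Figure D5:**
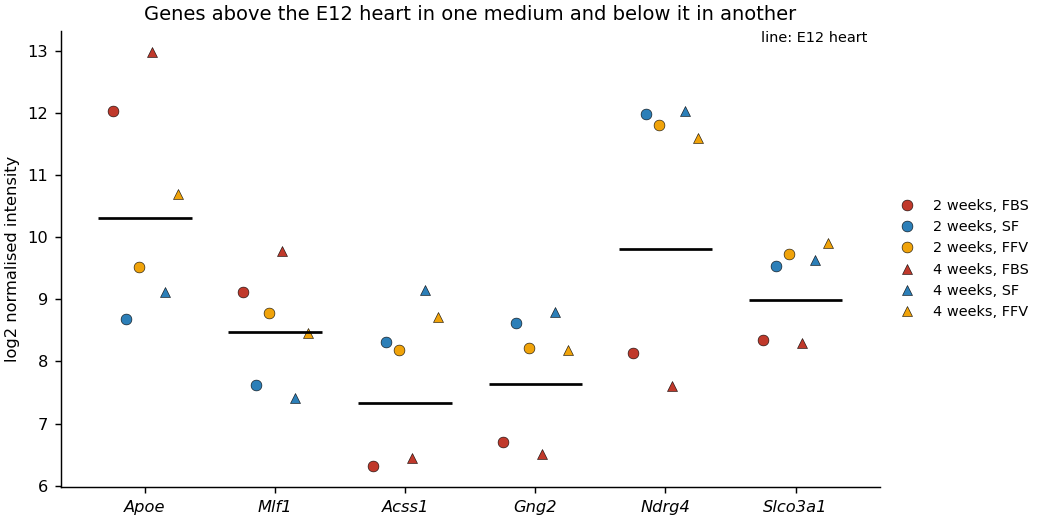
Log2 normalised intensity (y axis) of the 6 genes that lay at least 1.5-fold above the E12 heart in one medium and 1.5-fold below it in another at both times; points are single iCM arrays (colour for medium, shape for time) and black lines the heart array. Apoe and Mlf1 are above the line in FBS, and Acss1, Gng2, Ndrg4 and Slco3a1 below it.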

How the data were processed

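Total RNA was amplified as amino allyl aRNA, coupled to Cy5 and hybridised to Toray arrays, per the labels' protocols. The scanner intensity, deposited by the authors and joined from 3 gains per the file headers, carries no background correction. The value table deposited by the authors states no unit; its values follow the spot median linearly, with the blanks subtracted and a median of 25. Its columns all map to these samples, with 0 of another series.

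Spot medians were corrected by normexp (offset 50, limma 3.58.1, R 4.3.3), quantile normalised over 13 arrays and put on the log2 scale. The log2 step is not the authors': their deposited values are linear. A probe was well above background when over the blank mean plus 2 SD, which held for 85.0% to 91.5% of 23473 probes on the 7 arrays. Of the probes 16631 carried 1 symbol and 6842 none; 12622 symbols were current, 3947 updated and 62 unmatched. The brightest probe stood for each gene, and 8 genes had a missing spot. Array number limits precision.

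Members and the 35 lists (666 of 729 genes measured) were chosen with earlier results of these data known. Named genes are a panel of 26 (24 measured), up to 4 called and 3 near members of each list, the 15 highest, 15 lowest and 15 brightest near genes, and medium-split genes, with unnamed predicted genes passed over. The calling code was checked on simulated data with every spot above background and no floor or shift of scale. That check does not test calls of dim genes or the effect of scale. Alternatives covered the value table, median scaling, an offset of 16, a floor, the local surround, quantiles over 7 arrays, the mean of probes, the dim filter, 3-fold (within 2-fold) and each array left out. Python 3.11.15 did the counting.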

Additional observations from a re-analysis of the deposited data

Results flagged for a closer look

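Genes stood out when both arrays of one medium lay at least 1.5-fold above the E12 heart and both arrays of another at least 1.5-fold below it, and none of these differences between media was tested. The log2 difference between media was 3.60 for the lipid carrier Apoe (FBS over SF, 2.19 above and -1.42 below the heart on average) and 1.94 for Mlf1 (FBS over SF). It was 4.14 for Ndrg4 in SF over FBS and 3.84 in FFV over FBS. For the acetate enzyme Acss1 it was 2.35 in SF over FBS and 2.06 in FFV over FBS. The G protein subunit Gng2 gave 2.10 in SF over FBS, and the transporter Slco3a1 gave 1.49 in FFV over FBS. The part of other cell types in these values was not tested. Macrophage markers summed to 394 to 1581 over the iCM arrays, the highest being FBS at 4 weeks, the array in which Apoe was also highest.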

How the results depend on the processing

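Genes called higher numbered 498, and 1359 with the value table, 767 with median scaling, 763 with an offset of 16, 1505 with a floor, 204 with the local surround subtracted, 181 at 3-fold and 61 among genes with a heart level of at least 9. Genes called lower numbered 575, and 1033 with the value table, 369 with median scaling, 944 with a floor, 347 with the surround subtracted, 262 at 3-fold and 275 at a heart level of at least 9. Genes within 1.5-fold numbered 8551, and 3954 with the value table, 4002 with a floor, 3736 by both sources and 574 at a heart level of at least 9. Heart-enriched genes called lower numbered 66 at 3-fold, and fibroblast-enriched genes called higher 97 with a floor, 36 with the surround subtracted and 41 at 3-fold. The share of calls that were higher was 46.4%, against 56.8% with the value table, 61.5% with a floor, 67.5% with median scaling and 37.0% with the surround subtracted. Under all 6 value settings 188 of 498 higher and 242 of 575 lower calls were made. The cause of these shifts was not tested. The requirement on both sources and the heart level of at least 9 were chosen after seeing the data.

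The oxidative phosphorylation median changed sign, to 0.39 with median scaling, 0.22 with the value table and 0.35 with a floor, and the fibroblast and matrix median changed to 0.00501 with the surround subtracted. Leaving out 1 iCM array gave 505 to 559 higher, 583 to 615 lower and 8656 to 8840 near genes, 101 to 106 heart-enriched genes called lower and 62 to 67 fibroblast-enriched genes called higher. Because the rules require every iCM array to pass, leaving 1 out can only add genes. These counts therefore do not test the calls. Counted once per list and setting, 394 medians stayed within the spread over the 6 arrays and 134 moved beyond it. No called named gene changed direction under the alternatives run. Uncalled genes near the heart did, such as Acadm (-0.22, and 0.17 with the value table), Txnrd1 (-0.21 and 0.13) and Cdh2 (-0.27 and 0.02). Counted once per named gene and setting, 53 calls were lost (35 with the surround subtracted) and 22 gained, so a gene can count more than once. No paired analysis was possible because each group holds 1 array. Dim genes near the blanks are limited by background, and the E12 heart, a single array, enters every difference.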
